A study of Homo sapiens with 24 samples.

Results

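The tumor necrosis factor (TNF) ligand superfamily, the TNF receptor superfamily and the TNF receptor associated factors (TRAFs) were followed in renal carcinoma cells given interferon gamma (IFNγ) and siRNA against PD-L1. Members were chosen by gene name and not by their values: every protein-coding gene whose symbol begins with TNFSF or TNFRSF, the 6 adaptors *TRAF1* to *TRAF6*, and the members that carry another symbol (*TNF*, *LTA*, *LTB*, *CD40LG*, *FASLG*, *CD70*, *FAS*, *CD40*, *CD27*, *NGFR*, *LTBR* and *EDA2R*). The count table held a row for 46 of them among its 39321 rows, namely 15 ligands, 7 receptors with a death domain, 3 decoy receptors, 15 other receptors and 6 adaptors. Another 5 genes that meet the rule, *TNFSF8*, *TNFSF11*, *TNFSF12-TNFSF13*, *TNFRSF13B* and *TNFRSF6B*, were not analysed here.

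Both lines used, A498 and 786-O, are established human lines derived from clear cell renal carcinoma. They received 20 nM of a non-targeting siRNA pool (Cnsi) or of an siRNA pool directed at PD-L1 (PD-L1si), and afterwards either IFNγ at 50 ng/mL for 24 hours or none. The groups are thus Cnsi and PD-L1si, each without IFNγ or with it (Cnsi IFNγ, PD-L1si IFNγ), with 3 replicates per group and line and 24 libraries in all. The labelled group PD-L1si without IFNγ is not among the 3 groups that the extraction protocol names. The labels call the PD-L1si cells knockout cells while the protocol describes siRNA, which leaves residual transcript, and 1 pool per target was used, so that an effect of losing PD-L1 and another effect of the same pool cannot be told apart. The paper's methods also describe a luciferase transgene introduced by lentivirus in these lines, and the labels do not say whether the sequenced cells carried it.

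Total counts ran from 19256316 to 27907526 per library labelled A498 and from 26807875 to 30350461 per library labelled 786-O. The targeted gene *CD274* had mean levels of 5.07 in Cnsi, 194 in Cnsi IFNγ, 0.916 in PD-L1si and 27.7 in PD-L1si IFNγ libraries of A498, and of 4.08, 60.4, 1.52 and 31.4 in the same order in 786-O, in CPM (counts scaled to library size). Of 8 markers of renal carcinoma, 8 reached a mean of 1 CPM in the A498 libraries and 5 in the 786-O libraries, where *PAX2* and *VEGFA* were at 0 in every library, and none of the 5 blood cell markers or 4 endothelial and fibroblast markers with a row did so in either line. In the libraries labelled 786-O, 1475 genes, *ACTB* among them, were at 0 throughout although they summed to over 1000 counts in those labelled A498. The reverse was true of 35 genes. A value of 0 in the 786-O libraries was therefore not read as absence, and the reason for these zeros was not tested. The lines were sequenced on different instruments, so line and instrument cannot be told apart, and whether the line labels are exchanged was not tested. Lines are named as labelled, and levels were compared within a line only.

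The ligands of this family are mostly trimeric membrane proteins that can be shed, and they bind receptors with cysteine-rich repeats. Receptors with a death domain can recruit caspase-8 and start apoptosis, while most other receptors recruit TRAF adaptors and switch on NF-κB and stress kinases. Decoy receptors bind ligand without passing on a full signal. In tumors the family is known for the killing of tumor cells by lymphocytes through FAS ligand and TRAIL, and for the costimulation of T and B cells through CD40, 4-1BB and CD27.

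In Cnsi cells 28 of the 46 members reached a mean of at least 1 CPM in A498 and 23 in 786-O, and 21 and 18 reached 10 CPM. In at least 1 of the 4 groups, 30 and 28 members reached 1 CPM and 22 in each line 10 CPM. In the Cnsi libraries labelled A498, levels per kilobase of exon were highest for *TNFSF10* (TRAIL, a death ligand) at 400.3 CPM per kb, then *CD70* (the ligand of CD27) at 252, *TNFRSF12A* (the TWEAK receptor Fn14) at 157, *TNFRSF1A* (TNF receptor 1) at 79.1 and *LTBR* (the lymphotoxin β receptor) at 61.3. The 3 replicates of each of these genes did not overlap with those of the next. *TNFSF10* alone made up 34.8% of the summed level per kb of all members, and these 5 genes together 82.6%. In the Cnsi libraries labelled 786-O, *CD70* led with 218 CPM per kb, followed by *TNFRSF1A* at 104, *TNFRSF11B* (osteoprotegerin, a secreted decoy receptor) at 70.4, *TNFRSF10B* (the TRAIL receptor DR5) at 59.1 and *LTBR* at 51.4, and *TNFSF10* stood at 11.3. *CD70* made up 32.8% of the summed level there and the first 5 genes 75.6%. In 786-O 9 members, *TNFRSF12A* among them, were at 0 in every library and entered this order, these shares and the counts of members as 0. Since such zeros were not read as absence, the 786-O order, shares and counts hold only for the rows as deposited.

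Several ligands were at or near 0. *CD40LG* and *FASLG* were at 0 in every library labelled A498, *TNF* never exceeded 1.79 CPM there, and in the libraries labelled 786-O *TNF* had at most 1 count. For testing, a gene needed 10 counts or more in total across the 3 libraries of some group. By that filter 37 members were tested in A498 and 31 in 786-O, with 30 tested in both, and 8 in neither (*CD40LG*, *FASLG*, *LTA*, *LTB*, *TNFRSF4*, *TNFRSF10C*, *TNFRSF17* and *TNFRSF18*). Of those tested, 3 in A498 (*NGFR*, *TNFRSF1B* and *TNFRSF8*) and 2 in 786-O (*TNFRSF8* and *TNFSF18*) passed only through their IFNγ groups, where they were high.

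Comparing Cnsi IFNγ with Cnsi cells asked how the cytokine changes the family while PD-L1 is intact. Outside the decoy receptors the calls were mostly upward, and 9 members were called in both lines in the same direction: the ligands *TNFSF13B* and *TNFSF15*, the receptors *TNFRSF14*, *TNFRSF1B*, *TNFRSF8*, *CD40* and *NGFR*, and the adaptor *TRAF1* rose, and the decoy receptor *TNFRSF10D* fell. Of these, *TNFRSF8* was tested in both lines, and *NGFR* and *TNFRSF1B* in A498, through their IFNγ groups only. A member was called when the adjusted p of edgeR's quasi-likelihood test was under 0.05 and the log2 fold change lay beyond 0.5 in either direction. In A498, 14 members were higher and 4 lower, which is 48.6% of the 37 tested, beside 36.8% of all 20916 genes tested (18.2% higher and 18.5% lower). In 786-O, 10 were higher and 1 lower, which is 35.5% of 31, beside 18.5% of 21209 genes (11.1% higher and 7.39% lower). Without the members that passed the filter through their IFNγ groups only, 15 of 34 (44.1%) and 9 of 29 (31%) were called. Such genes were not taken out of the shares of all genes, so these 2 member shares have no like background. By the adjusted p alone, 29 members in A498 and 20 in 786-O passed, beside 61.3% and 38.8% of all genes. The median log2 fold change of the members was 0.29 and 0.30, and that of all genes was -0.03 and 0.00. The plot of IFNγ effects shows all tested members.

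**Figure D1:**
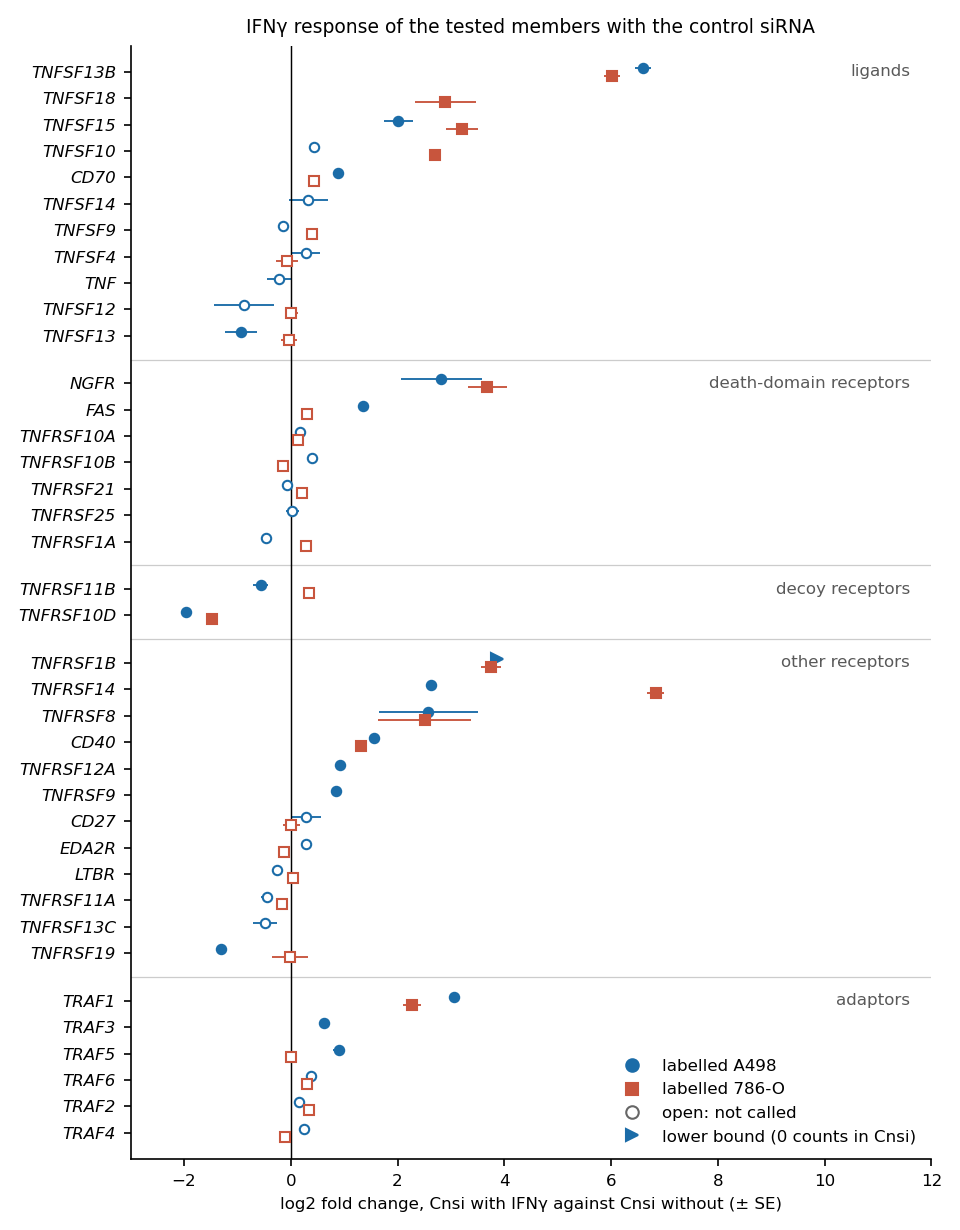
Log2 fold change with IFNγ in Cnsi cells (horizontal axis, ± SE from the edgeR fit, 3 against 3 libraries) for each member tested, grouped by role. Blue circles are libraries labelled A498 and red squares those labelled 786-O, filled where called and open where not, and a triangle marks a lower bound. *TNFSF13B* stands at the far right in both lines and *TNFRSF14* in 786-O, and *TNFRSF10D* stands left of 0 in both.

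Among the ligands, *TNFSF13B* encodes BAFF, a survival factor for B cells. It measured 0.199, 0.358 and 0.518 CPM in the 3 Cnsi libraries labelled A498 and 36.5, 36.0 and 33.0 CPM in the Cnsi IFNγ libraries. In 786-O it went from 0.224, 0.214 and 0.240 CPM to 14.2, 15.0 and 15.7 CPM. Every treated library was far above every untreated one, with a 96.8-fold difference in A498 (log2 fold change 6.60 ± 0.15 SE, adjusted p = 8.83e-30) and a 64.8-fold difference in 786-O (6.02 ± 0.16, adjusted p = 5.49e-21). *TNFSF15* encodes TL1A, a ligand of the death receptor DR3. It had 0.479, 0.477 and 0.279 CPM against 2.05, 1.32 and 1.68 CPM with IFNγ in A498, and 0.224, 0.179 and 0.206 CPM against 1.86, 2.33 and 1.54 CPM in 786-O. The groups did not overlap in either line, and the differences were 4.04-fold (log2 2.01 ± 0.27, adjusted p = 4.26e-08) and 9.23-fold (3.21 ± 0.30, adjusted p = 1.78e-09).

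The short promoter stretches of both ligands, of the receptors *TNFRSF14* and *TNFRSF1B* and of *TNFSF10* are shown as examples of motif matches in members that rose at least 4.04-fold with IFNγ in a line. *TNFRSF8*, near the limit of detection, and *FAS* also held matches. RefSeq windows of 300 bases on GRCh38.p14, from 250 bases before a transcription start to 50 bases from it on, were matched for 32 of the 46 members. Both strands were searched for the GAS motif TTCNNNGAA, the IRF motif (GAAA, then any 2 bases, then GAAA), the AP-1 motif TGANTCA and the κB motif. Capitals mark the match in each stretch, written 5′ to 3′ on the strand of the gene. The *TNFSF10* stretch was added after its values were seen.
TNFSF13B, chr13:108269637-108269666, plus strand, in its 5′ UTR as counted from one start and upstream of another, IRF motif: tacaaaaactGAAAGTGAAAtgaggaagac
TNFSF15, chr9:114792591-114792690, minus strand, inside the gene and outside its exons, AP-1 motif: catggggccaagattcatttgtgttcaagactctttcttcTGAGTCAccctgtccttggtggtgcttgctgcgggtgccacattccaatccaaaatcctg
TNFSF10, chr3:172523561-172523660, minus strand, upstream of the start, IRF motif read on the opposite strand: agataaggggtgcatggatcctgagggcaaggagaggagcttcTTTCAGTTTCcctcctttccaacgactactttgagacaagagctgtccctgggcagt
TNFRSF14, chr1:2556271-2556370, plus strand, outside its exons and covered by an exon of the antisense RNA *TNFRSF14-AS1*, overlapping κB matches: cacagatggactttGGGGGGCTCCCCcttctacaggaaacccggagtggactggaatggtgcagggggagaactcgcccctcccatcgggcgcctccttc
TNFRSF1B, chr1:12166891-12166990, plus strand, directly upstream of the start and overlapping *MIR7846*, IRF motif read on the opposite strand: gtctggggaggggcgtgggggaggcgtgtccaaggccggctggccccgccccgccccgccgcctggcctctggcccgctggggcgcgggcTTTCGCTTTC

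Such matches are frequent. The IRF motif was found in 3.57% of all 35116 windows and in the windows of 6 of the 32 members, GAS in 7.66% and 3 members, AP-1 in 7.71% and 7 members, and κB in 11.3% and 10 members. A member was counted when any of its windows held the motif, and a member can have several windows. The percentages are per window, so the member counts cannot be read against them. Of the 9 members called in both lines, 6 had a window (*TNFRSF14*, *TNFRSF1B*, *TNFRSF8*, *TNFSF13B*, *TNFSF15* and *TRAF1*), and 2 of these held the IRF motif, 2 AP-1, 1 κB and 0 GAS. A match is a description of the letters in these windows only.

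Another 4 ligands were called in 1 line each. *TNFSF10* measured 40.3, 37.7 and 39.0 CPM in Cnsi and 244, 256 and 260.3 CPM in Cnsi IFNγ libraries labelled 786-O, a 6.50-fold rise (log2 2.70 ± 0.06, adjusted p = 5.11e-23). In A498, where it began at 1381, 1411 and 1341 CPM, it reached 1896, 1916 and 1775 CPM, which passed the adjusted p (5.54e-12) but not the fold threshold (log2 0.43 ± 0.04). The treated libraries lay above the untreated ones in both lines. *CD70* rose in A498 from 393, 381 and 383 CPM to 715, 707 and 722 CPM (log2 0.89 ± 0.04, adjusted p = 1.06e-19), and its difference in 786-O was 0.43 ± 0.05. *TNFSF18*, the ligand of the T cell receptor GITR, was tested in 786-O only, at 2, 1 and 2 counts without and 13, 10 and 13 counts with IFNγ (log2 2.89 ± 0.57, adjusted p = 0.000201). *TNFSF13*, which encodes the B cell factor APRIL, was lower in A498 with overlapping groups, 1.44, 0.557 and 1.12 CPM against 0.671, 0.465 and 0.481 CPM (log2 -0.93 ± 0.31, adjusted p = 0.00846). It was no longer called without Cnsi replicate 1 (-0.63), and reads it shares with the readthrough gene *TNFSF12-TNFSF13* make its counts uncertain.

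Of the receptors with a death domain, *FAS* and *NGFR* rose in A498 and *NGFR* alone in 786-O. *FAS*, which starts apoptosis when bound by FAS ligand, measured 61.9, 66.2 and 67.9 CPM without IFNγ and 167, 169 and 162 CPM with it in A498, a 2.54-fold difference (log2 1.35 ± 0.05, adjusted p = 5.22e-23). In 786-O it measured 79.6, 74.5 and 76.4 CPM against 83.0, 103 and 99.8 CPM, and its log2 difference of 0.31 ± 0.06 (adjusted p = 0.000389) stayed under the fold threshold. The groups did not overlap in either line. *NGFR*, the low-affinity neurotrophin receptor, was close to the limit of detection in A498, where it summed to 3 counts without and 22 with IFNγ (ratio 7.84, 95% counting interval 2.36 to 40.9, adjusted p = 0.00168). In 786-O it rose 12.8-fold, from 0.384, 0.357 and 0.206 CPM to 2.22, 4.81 and 5.40 CPM (log2 3.68 ± 0.36, adjusted p = 5.91e-07), with the lowest treated value in Cnsi IFNγ replicate 1.

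In the TRAIL system the decoy receptor *TNFRSF10D* fell in both lines, and neither death receptor was called in either. The decoy receptor *TNFRSF11B* did not fall in both. *TNFRSF10D*, a TRAIL receptor whose death domain is truncated, measured 85.5, 82.3 and 81.5 CPM in Cnsi and 22.7, 20.4 and 20.5 CPM in Cnsi IFNγ libraries labelled A498. In 786-O the values were 69.9, 66.0 and 70.8 CPM against 20.3, 26.7 and 27.0 CPM. All treated libraries lay below all untreated ones, 3.92-fold in A498 (log2 -1.97 ± 0.05, adjusted p = 3.36e-27) and 2.80-fold in 786-O (-1.48 ± 0.08, adjusted p = 2.82e-13). *TNFRSF10A* and *TNFRSF10B*, the TRAIL receptors DR4 and DR5, were called in neither line, with log2 differences of 0.18 ± 0.08 and 0.39 ± 0.04 in A498 and 0.14 ± 0.07 and -0.15 ± 0.06 in 786-O. On the scale of mean CPM per kb, *TNFRSF10D* went from 23.5 to 6.00 in A498 while *TNFRSF10B* went from 43.8 to 57.5 and *TNFRSF10A* from 5.49 to 6.24. In 786-O the mean level per kb of *TNFRSF10D* went from 19.5 to 6.98, that of *TNFRSF10B* from 59.1 to 53.2 and that of *TNFRSF10A* from 8.94 to 9.83. The secreted decoy *TNFRSF11B* was lower in A498 (3.71, 3.78 and 3.31 against 2.52, 2.48 and 2.26 CPM, log2 -0.57 ± 0.15, adjusted p = 0.00124), with a difference of 0.34 ± 0.07 in 786-O. Its mean level per kb in 786-O went from 70.4 to 89.1, above that of *TNFRSF10D* in both groups.

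**Figure D2:**
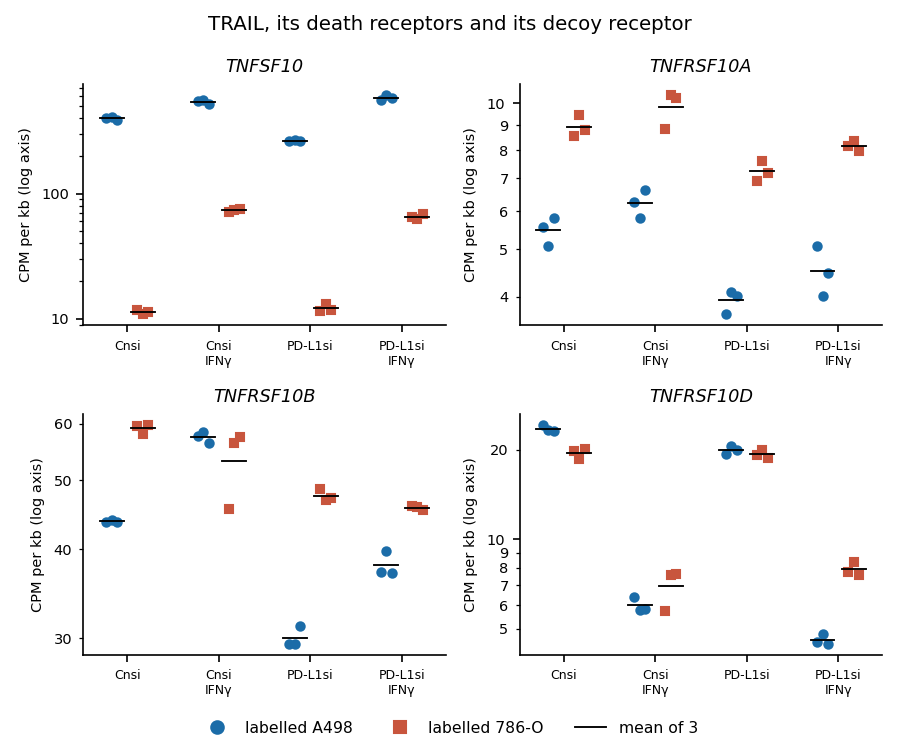
CPM per kilobase of exon (vertical log axis) of *TNFSF10*, the death receptors *TNFRSF10A* and *TNFRSF10B* and the decoy *TNFRSF10D* in each library, by group, with the mean of 3 as a line. *TNFRSF10D* is lower in every IFNγ library of both lines, and *TNFSF10* rises from a mean of 11.3 to 73.7 CPM per kb in the libraries labelled 786-O.

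Of the other receptors, 6 were higher and 1 lower of 12 tested in A498, and 4 higher and 0 lower of 9 in 786-O. Of all genes 36.8% and 18.5% were called. The counts include *TNFRSF1B* and *TNFRSF8* in A498 and *TNFRSF8* in 786-O, which were tested through their IFNγ groups only. *TNFRSF14* encodes HVEM, which binds LIGHT and the lymphocyte inhibitory receptor BTLA. It measured 13.2, 11.7 and 13.0 CPM against 79.2, 76.1 and 80.2 CPM with IFNγ in A498, and 0.0959, 0.250 and 0.206 CPM against 19.3, 21.0 and 23.2 CPM in 786-O. The groups were far apart in both lines, by 6.21-fold (log2 2.63 ± 0.06, adjusted p = 7.82e-29) and 114-fold (6.83 ± 0.16, adjusted p = 7.6e-22). Its antisense partner *TNFRSF14-AS1* summed to 1394 counts over the A498 libraries beside 12588 for *TNFRSF14*, and to 235 beside 3878 in 786-O, and reads of the pair may be mixed. *CD40*, the costimulatory receptor of antigen-presenting cells, went from 28.0, 24.5 and 26.6 to 78.8, 77.7 and 75.9 CPM in A498 (2.94-fold, log2 1.56 ± 0.05, adjusted p = 1.57e-24). In 786-O it went from 23.2, 22.1 and 23.5 to 51.6, 60.0 and 60.2 CPM (2.49-fold, 1.32 ± 0.06, adjusted p = 2.49e-15).

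Both *TNFRSF1B*, which encodes TNF receptor 2, and *TNFRSF8*, which encodes CD30, were near the limit of detection in A498. *TNFRSF1B* had 0 counts in all 3 Cnsi libraries there and 17, 16 and 12 counts with IFNγ, which is at least 14.6-fold higher against a floor of 3 counts over the group (adjusted p = 7.67e-08). In 786-O it was well measured, at 0.831, 0.929 and 0.652 CPM against 8.46, 11.7 and 12.5 CPM (13.4-fold, log2 3.75 ± 0.19, adjusted p = 9.38e-14). *TNFRSF8* had 2, 0 and 0 counts against 6, 6 and 1 counts in A498, with overlapping CPM values, and 0, 1 and 1 against 5, 3 and 4 counts in 786-O. Its count ratios were 6.95 (95% counting interval 1.57 to 63.4, adjusted p = 0.0159) and 6.60 (1.47 to 60.8, adjusted p = 0.0232). The call was lost without Cnsi replicate 2 or 3 in A498 (log2 2.07 and 2.08) and without Cnsi replicate 1 in 786-O (log2 1.96), and in both lines with DESeq2 (2.77 and 2.70).

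Fn14 and 4-1BB rose in A498 and TROY fell. *TNFRSF12A* measured 281, 282 and 285 CPM without and 536, 522 and 546 CPM with IFNγ (log2 0.92 ± 0.04, adjusted p = 1.93e-20). *TNFRSF9*, the costimulatory receptor 4-1BB, measured 91.6, 95.7 and 91.9 CPM against 164, 170.5 and 167 CPM (log2 0.85 ± 0.04, adjusted p = 2.05e-18). Both genes were at 0 in all libraries labelled 786-O and were not tested there. *TNFRSF19*, the orphan receptor TROY, fell from 24.8, 23.0 and 20.3 CPM to 8.47, 9.93 and 9.24 CPM (log2 -1.30 ± 0.09, adjusted p = 1.13e-15), and in 786-O it stayed under 1 CPM with a difference of -0.01 ± 0.34.

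Among the adaptors *TRAF1* showed the largest change. TRAF1 binds TRAF2 and the inhibitor of apoptosis proteins at activated receptors, and its gene is known to be driven by NF-κB. It measured 12.0, 12.7 and 12.1 CPM without and 106, 93.2 and 106 CPM with IFNγ in A498 (8.28-fold, log2 3.05 ± 0.06, adjusted p = 1.52e-31). In 786-O the values were 3.71, 4.08 and 3.67 CPM against 13.1, 21.3 and 21.0 CPM (4.84-fold, 2.27 ± 0.16, adjusted p = 1.45e-08), with Cnsi IFNγ replicate 1 below the other two. *TRAF5*, an adaptor of CD40 and several costimulatory receptors, rose in A498 (3.55, 3.86 and 3.31 against 6.33, 6.59 and 7.22 CPM, log2 0.91 ± 0.12), and its difference in 786-O was -0.00 ± 0.11. *TRAF3*, which restrains the alternative NF-κB pathway, rose in A498 from 36.1, 36.8 and 37.2 to 55.5, 55.3 and 58.5 CPM (log2 0.62 ± 0.05, adjusted p = 2.99e-13) and was at 0 in every library labelled 786-O. The members not called lay between -0.88 ± 0.56 (*TNFSF12*) and 0.43 ± 0.04 (*TNFSF10*) on the log2 scale in A498 and between -0.17 ± 0.09 (*TNFRSF11A*) and 0.43 ± 0.05 (*CD70*) in 786-O.

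**Figure D3:**
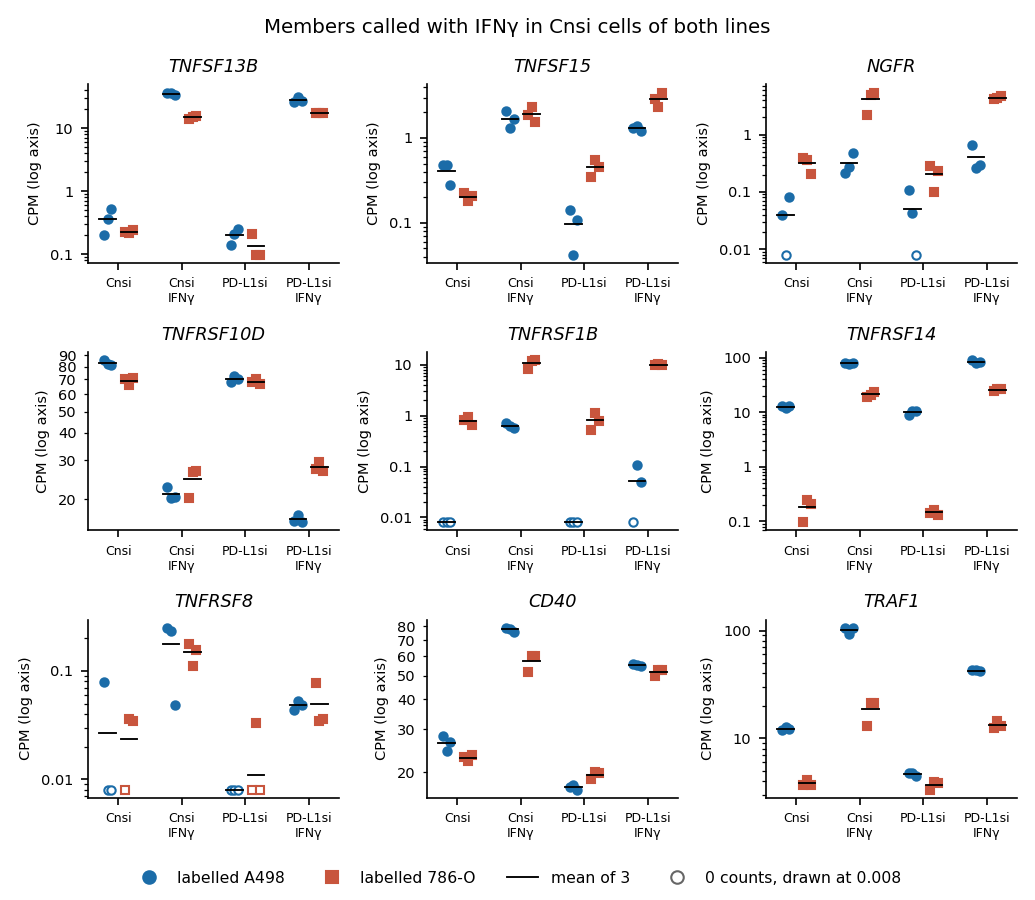
CPM (vertical log axis) in each library of the 9 members called with IFNγ in Cnsi cells of both lines, by group, with circles for libraries labelled A498, squares for those labelled 786-O and the mean of 3 as a line. Open symbols at the foot of the axis are libraries with 0 counts. The means of the IFNγ groups stand above those of the untreated groups in 8 panels and below them in the *TNFRSF10D* panel.

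The intracellular partners of these receptors were taken from lists compiled by hand. Of 14 tested genes of death signalling, 8 were higher and 1 lower in A498, and of 8 tested in 786-O, 5 were higher and 0 lower, with medians of 0.56 and 0.60 on the log2 scale. Of all genes 36.8% and 18.5% were called. They included *CASP8*, the initiator caspase (1.29 in A498 and 0.91 in 786-O), its inhibitor *CFLAR* (1.20 and 0.52) and *MLKL*, the effector of necroptosis (2.03 and 1.89). Of the genes of NF-κB signalling, 11 of 23 were higher in A498 and 5 of 18 in 786-O and 0 were lower in either, with medians of 0.49 and 0.28. *TNFAIP3*, the NF-κB feedback inhibitor A20, had log2 differences of 1.93 and 2.28, and *RELB* had 1.41 and 0.75.

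The size of the IFNγ effect could be compared between lines for the 30 members tested in both. The difference, 786-O minus A498, was called for 12 of them, 8 more positive and 4 more negative in 786-O, which is 40.0% beside 28.4% of 17999 genes (15.1% more positive and 13.2% more negative), and 20 passed by the adjusted p alone, beside 46.8%. With relative log expression scaling the split was 7 to 6. Among those called, the largest differences were those of *TNFRSF14* (log2 4.19 ± 0.23, adjusted p = 1.33e-18) and *TNFSF10* (2.26 ± 0.07, adjusted p = 2.48e-26). *TRAF1* (-0.78 ± 0.19, adjusted p = 0.00116), *FAS* (-1.04 ± 0.09, adjusted p = 1.17e-12), *TRAF5* and *TNFRSF10B* were more negative in 786-O. *TNFRSF1A*, the main TNF receptor, differed in sign, from 339, 327 and 331 to 253, 232 and 241 CPM in A498 and from 436, 431 and 443 to 507, 549 and 542 CPM in 786-O (difference 0.74 ± 0.06, adjusted p = 2.6e-13), although neither change passed the fold threshold by itself. *TNFRSF11B* also differed in sign (0.90 ± 0.18, adjusted p = 0.000118), at 187, 172 and 171 against 198, 240.4 and 234 CPM in 786-O, where all treated libraries were above the untreated ones. *TNFSF9* went from 56.7, 54.1 and 51.6 to 49.6, 52.0 and 45.4 CPM in A498 and from 66.9, 69.4 and 72.2 to 89.6, 93.5 and 90.9 CPM in 786-O (0.53 ± 0.07), a call lost with relative log expression (0.48). *TNFRSF10B* went from 219, 220.0 and 219 to 289, 293 and 282 CPM in A498 and from 298, 291 and 299 to 228, 283 and 288 CPM in 786-O (-0.55 ± 0.07), and without Cnsi IFNγ replicate 1 of 786-O it was no longer called (-0.46). The instrument changes with the line, so a difference of line and one of instrument cannot be told apart.

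IFNγ was also given to PD-L1si cells, a comparison with its own libraries. Again 14 members were higher and 4 lower in A498 (33.5% of all genes were called, 17.6% higher and 15.9% lower) and 10 higher and 1 lower in 786-O (18.4% of all genes, 11% higher and 7.45% lower), with member medians of 0.46 and 0.32 beside -0.02 and 0.00 for all genes. Members tested through their IFNγ groups only were not taken out of these counts. Among them *NGFR* was called in A498, at 3, 1 and 0 counts without IFNγ and 15, 5 and 6 counts with it. *TNFSF18* was called in 786-O, at 2 counts over the group without IFNγ and 13 with it. By the adjusted p alone, 30 and 19 members passed, beside 58.5% and 38.5% of all genes. *TNFSF13B* reached 26.0, 31.6 and 26.5 CPM in A498 and 17.6, 17.3 and 17.2 CPM in 786-O. The 786-O rise was 126-fold from only 6, 3 and 3 counts without IFNγ, so its size is uncertain. *TNFRSF14* reached 90.2, 79.6 and 84.1 CPM in A498 and 24.9, 26.5 and 26.6 CPM in 786-O, there from 4, 5 and 4 counts. *TNFRSF10D* again fell, to 15.9, 16.9 and 15.7 CPM in A498 (log2 -2.12 ± 0.06) and to 27.5, 29.5 and 26.9 CPM in 786-O (-1.29 ± 0.07).

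Comparing PD-L1si IFNγ with Cnsi IFNγ cells asked whether the family depends on PD-L1 while the cytokine is present. The mean of *CD274* itself went from 194 to 27.7 CPM in A498 and from 60.4 to 31.4 CPM in 786-O, so silencing was weaker in 786-O. In A498, 6 members were called: *TRAF1*, *TNF*, *TNFRSF10B*, *TNFRSF9* and *TNFRSF1B* were lower and *TNFRSF19* was higher. This is 16.2% of 37, beside 10.1% of all genes (4.36% higher and 5.75% lower), and the member median was -0.20 on the log2 scale beside 0.01. Counted here is *TNFRSF1B*, which was tested only because its Cnsi IFNγ counts were high. In 786-O, *TNFSF15* was higher and *TNFSF18* lower, which is 6.45% of 31 beside 3.03% of all genes (1.29% higher and 1.74% lower), with a median of -0.12 beside 0.01. *TNFSF18* was tested there through its IFNγ groups only, and apart from it *TNFSF15* was the only call. By the adjusted p alone, 19 members in A498 and 9 in 786-O passed, beside 34.1% and 14% of all genes. The plot of PD-L1 siRNA effects sets the members side by side.

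**Figure D4:**
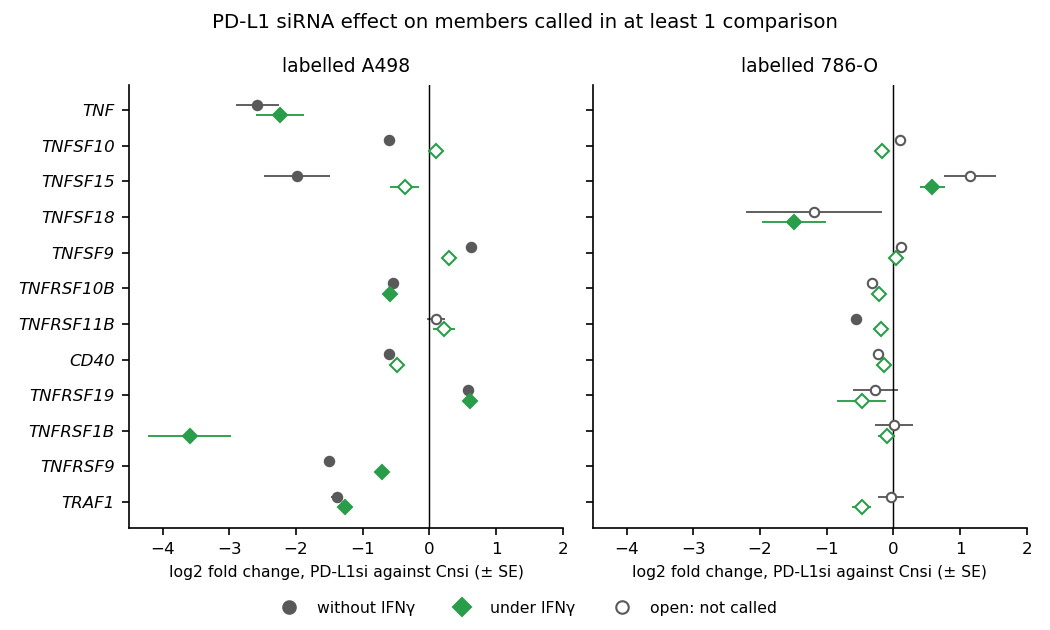
Log2 fold change of PD-L1si against Cnsi (horizontal axis, ± SE, 3 against 3 libraries) without IFNγ (grey circles) and under IFNγ (green diamonds), for members called in at least 1 of these comparisons, with A498 left and 786-O right. Filled symbols are called. *TRAF1*, *TNF*, *TNFRSF9* and *TNFRSF10B* stand left of 0 in both A498 comparisons.

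*TRAF1* measured 106, 93.2 and 106 CPM in Cnsi IFNγ and 42.8, 42.7 and 42.1 CPM in PD-L1si IFNγ libraries labelled A498. The 2 groups were far apart, 2.39-fold (log2 -1.26 ± 0.05, adjusted p = 3.99e-20). In 786-O it measured 13.1, 21.3 and 21.0 against 12.5, 14.4 and 12.9 CPM, which overlapped through Cnsi IFNγ replicate 1 and was not called (-0.48 ± 0.14, adjusted p = 0.0362). The difference between lines was itself called (0.80 ± 0.15, adjusted p = 0.000443). *TNFRSF9* measured 164, 170.5 and 167 CPM against 101, 107 and 98.0 CPM in A498 (1.64-fold lower, -0.71 ± 0.04, adjusted p = 3.29e-15), and *TNFRSF10B* 289, 293 and 282 CPM against 186, 199 and 186 CPM (1.51-fold lower, -0.60 ± 0.04, adjusted p = 2.21e-14). In neither did a PD-L1si IFNγ library reach the lowest Cnsi IFNγ library.

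The gene of the founding ligand, *TNF*, was low throughout, at 1.22, 1.36 and 1.35 CPM in Cnsi IFNγ and 0.218, 0.0527 and 0.533 CPM in PD-L1si IFNγ libraries labelled A498 (4.73-fold lower, log2 -2.24 ± 0.36, adjusted p = 4.14e-06). The groups did not overlap, and the log2 value ran from -3.14 to -1.81 when single libraries were left out. *TNFRSF1B* summed to 45 counts in Cnsi IFNγ and 3 in PD-L1si IFNγ, a ratio of 13.3 with a 95% counting interval from 4.27 to 67.0 (adjusted p = 2.13e-05). DESeq2 did not call it (log2 -3.72). In 786-O, where it was well measured, the 3 values were 8.46, 11.7 and 12.5 against 10.1, 10.5 and 9.88 CPM. *TNFRSF19* rose from 8.47, 9.93 and 9.24 to 15.2, 12.2 and 14.7 CPM in A498 (1.53-fold, 0.61 ± 0.09, adjusted p = 2.42e-06). *CD40* missed the fold threshold at -0.49 ± 0.05.

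Both calls in 786-O were weak. *TNFSF15* measured 1.86, 2.33 and 1.54 CPM in Cnsi IFNγ and 2.88, 2.34 and 3.43 CPM in PD-L1si IFNγ libraries (1.50-fold, log2 0.59 ± 0.19, adjusted p = 0.0346). *TNFSF18* went from 13, 10 and 13 counts to 3, 4 and 6 counts (2.81-fold lower, -1.49 ± 0.48, adjusted p = 0.0363). Neither pair of groups overlapped. *TNFSF15* was no longer called without Cnsi IFNγ replicate 1 (0.57) or 3 (0.46) or PD-L1si IFNγ replicate 1 (0.59) or 3 (0.44), and *TNFSF18* without Cnsi IFNγ replicate 1 (-1.46) or 3 (-1.39) or PD-L1si IFNγ replicate 1 (-1.32) or 2 (-1.40), and DESeq2 called 0 members there, with 16 at an unadjusted p under 0.05.

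Without IFNγ the PD-L1 siRNA changed a set of members in A498 and 1 in 786-O. In A498, *TNFRSF19* and *TNFSF9* were higher and *TRAF1*, *TNF*, *TNFRSF9*, *TNFRSF10B*, *CD40*, *TNFSF10* and *TNFSF15* were lower, 24.3% of 37 beside 8.48% of all genes (2.87% higher and 5.6% lower), with a median of -0.24 beside -0.00. In 786-O, *TNFRSF11B* fell from 187, 172 and 171 to 119, 128 and 112 CPM (log2 -0.56 ± 0.07, adjusted p = 2.37e-05), 3.23% of 31 beside 2.81% of all genes (1.19% higher and 1.63% lower). By the adjusted p alone, 16 and 7 members passed, beside 30.8% and 12.8% of all genes. These comparisons use libraries other than those under IFNγ.

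*TRAF1* was at 12.0, 12.7 and 12.1 CPM in Cnsi and at 4.79, 4.80 and 4.49 CPM in PD-L1si libraries labelled A498 (2.62-fold lower, log2 -1.39 ± 0.09, adjusted p = 6.75e-15), and in 786-O at 3.71, 4.08 and 3.67 against 3.33, 3.96 and 3.87 CPM. *TNFRSF9* was at 91.6, 95.7 and 91.9 against 31.9, 35.2 and 31.2 CPM (2.85-fold lower, -1.51 ± 0.05, adjusted p = 7.31e-23), and *TNF* at 1.24, 1.51 and 1.79 against 0.282, 0.168 and 0.285 CPM (5.97-fold lower, -2.58 ± 0.32, adjusted p = 5.53e-08). All 3 genes had separate groups in A498. *TNFSF10* was at 1381, 1411 and 1341 against 911, 920.0 and 895 CPM (1.52-fold lower, -0.60 ± 0.04, adjusted p = 1.11e-14). *TNFSF9*, the ligand of 4-1BB, moved the other way from its receptor, from 56.7, 54.1 and 51.6 to 82.6, 85.2 and 81.4 CPM (1.53-fold higher, 0.62 ± 0.05, adjusted p = 1.05e-12). *TNFSF15* fell 3.97-fold from 0.479, 0.477 and 0.279 to 0.141, 0.0421 and 0.107 CPM (-1.99 ± 0.49, adjusted p = 0.00176), *CD40* fell by 0.60 (SE 0.06) from 28.0, 24.5 and 26.6 to 17.4, 17.7 and 16.9 CPM and *TNFRSF10B* fell by 0.54 (SE 0.04) from 219, 220.0 and 219 to 148, 148 and 157 CPM, and *TNFRSF19* rose by 0.58 ± 0.07.

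**Figure D5:**
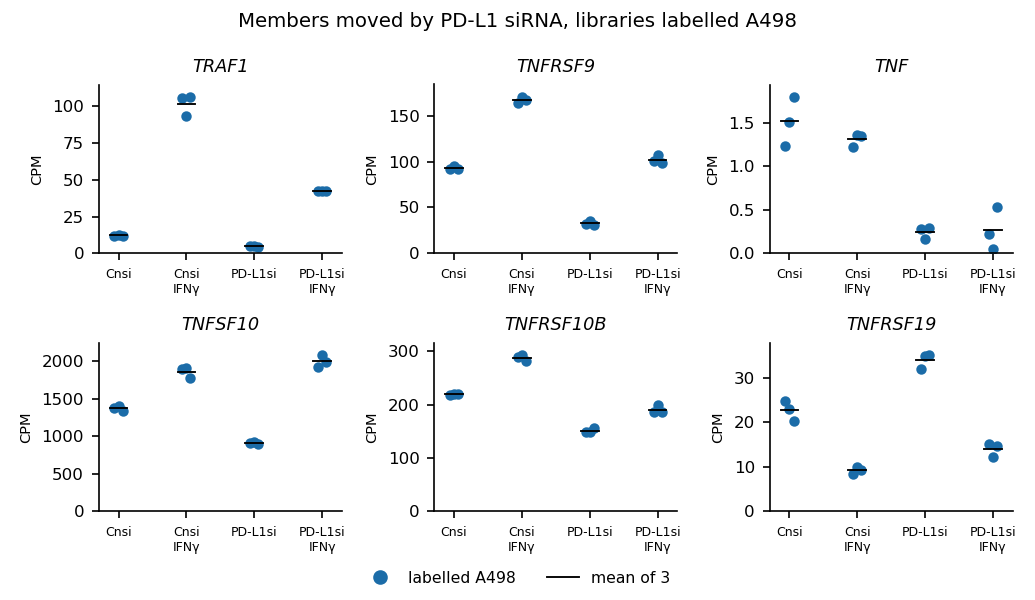
CPM (vertical axis from 0) of 6 members in each library labelled A498, by group, with the mean of 3 as a line. *TRAF1*, *TNFRSF9*, *TNF* and *TNFRSF10B* are lower in PD-L1si than in Cnsi libraries with and without IFNγ, *TNFRSF19* is higher, and *TNFSF10* is lower only without IFNγ.

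The *TNFRSF9* stretch is shown because the κB motif lies close upstream of a start of this gene. It was chosen after its values were seen, and it lies in a UTR of a transcript. The same window holds the GAS and AP-1 motifs.
TNFRSF9, chr1:7940895-7940924, minus strand, κB match in capitals: agagctgtggtGGGAATTTCCCatgagacc
No motif was matched in the 3 windows of *TRAF1*, which says only that these letters are not in them.

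Of the NF-κB list compiled by hand, 7 of 23 genes were lower with PD-L1 siRNA in A498 in each setting and 16 were not called. Under IFNγ, 0 were higher and 7 lower (median log2 -0.09), beside 4.36% and 5.75% of all genes, among them *TNFAIP3* (-1.57), the inhibitor gene *NFKBIA* (-0.73), and the subunit genes *NFKB2* (-0.73), *RELB* (-0.69) and *RELA* (-0.58). *MAP3K14*, the kinase of the alternative pathway, had 0.48 ± 0.05 there and was not called. Without IFNγ again 0 were higher and 7 lower (median -0.19), beside 2.87% and 5.6% of all genes, with *TNFAIP3* at -2.03 and *RELB* at -1.31. Of the death signalling genes, 3 of 14 were lower under IFNγ and 4 without, beside the same 5.75% and 5.6% of all genes, including the apoptosis inhibitor *XIAP* in both (-1.07 and -1.03). In 786-O only 8 of 15 death signalling and 18 of 23 NF-κB genes were tested, without *XIAP*, *NFKBIA*, *TNIP1* and *RBCK1*, and 0 of those tested were called in either comparison. Of all genes only 3.03% were called there under IFNγ and 2.81% without, so 0 calls among so few genes does not set the lists apart. Under IFNγ *TNFAIP3* had a log2 difference of -0.44 ± 0.08 (adjusted p = 0.000439) and *BIRC2*, an inhibitor of apoptosis, -0.45 ± 0.05 (adjusted p = 1.54e-06) there, both short of the fold threshold. Genes on these lists and *TRAF1* were read in the same libraries and are not independent of each other.

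Whether the siRNA altered the response to IFNγ was tested as an interaction. In A498 it was called for 2 members, *TNFSF10* (log2 0.71 ± 0.06, adjusted p = 2.18e-11) and *TNFRSF9* (0.79 ± 0.07, adjusted p = 1.02e-10), 5.41% of 37 beside 2.45% of all genes (1.81% higher and 0.645% lower), and 6 passed by the adjusted p alone, beside 9.08%. Each started lower in PD-L1si cells and rose more, *TNFSF10* from 911, 920.0 and 895 to 1932, 2087 and 1992 CPM (2.20-fold), and *TNFRSF9* from 31.9, 35.2 and 31.2 to 101, 107 and 98.0 CPM (3.12-fold). *TNFSF10* thus ended within log2 0.11 ± 0.04 of its Cnsi IFNγ level, whereas *TNFRSF9* ended below it. For *TRAF1* the interaction was 0.13 ± 0.11 (adjusted p = 0.53), with a 9.06-fold rise in PD-L1si cells beside 8.28-fold in Cnsi cells. In 786-O edgeR called 0 members (lowest adjusted p = 0.193), with 4 at an unadjusted p under 0.05, beside 0.099% of all genes called (0.0377% higher and 0.0613% lower, and 0.217% by the adjusted p alone), and DESeq2 called 0 with 4 at an unadjusted p under 0.05.

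The PD-L1 siRNA effect under IFNγ differed between lines for 6 of 30 members, 5 more positive in 786-O and 1 more negative, which is 20.0% beside 5.6% of all genes (2.96% more positive and 2.64% more negative), and 14 passed by the adjusted p alone, beside 16.3%. Besides *TRAF1* these were *TNFRSF1B* (log2 3.53 ± 0.66, adjusted p = 0.000174), *TNFSF13B* (0.56 ± 0.11, adjusted p = 0.000248), *TNFRSF10D* (0.59 ± 0.11, adjusted p = 7.95e-05), *TNFSF15* (0.97 ± 0.29, adjusted p = 0.0157) and, more negative, *TNFRSF19* (-1.07 ± 0.36, adjusted p = 0.0321). Of these, *TNFRSF1B* was tested in A498 through its IFNγ groups only. *TNFSF13B* was lower by 0.33 ± 0.07 in A498 and higher by 0.22 ± 0.08 in 786-O, and *TNFRSF10D* lower by 0.39 ± 0.07 and higher by 0.18 ± 0.08, none of which passed the fold threshold by itself. The *TNFRSF10D* call was lost without Cnsi IFNγ replicate 1 of 786-O (0.46), that of *TNFSF15* with DESeq2 (0.98) and without PD-L1si IFNγ replicate 3 of 786-O (0.83) or Cnsi IFNγ replicate 1 of A498 (0.79), and that of *TNFRSF19* in 5 of the 24 fits without one library (-1.07 to -0.90). The siRNA also lowered *CD274* under IFNγ less in 786-O (mean 60.4 to 31.4 CPM) than in A498 (194 to 27.7 CPM). Whether this unequal silencing bears on the line differences was not tested. In bulk RNA fewer cells of a kind and less RNA per cell cannot be told apart, which holds for every level above.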

How the data were processed

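RNA from 2 clear cell renal cell carcinoma lines was sequenced as stranded poly(A) libraries, 24 in all. Per the submitters' processing notes the authors used bcl2fastq 2.19.0, Trimmomatic 0.36.6, HISAT2 2.1.0 on GRCh38 and featureCounts 1.6.3 (stranded). The deposited values are raw counts per gene, whole numbers without normalization. Counting used the forward strand setting, while the TruSeq stranded kit usually yields reverse-stranded reads. Genes exceeded their antisense partner (a gene named with -AS1) in 93.3% of 991 such pairs in A498 and 87.3% of 940 in 786-O, among pairs of at least 1000 counts, but *VIM-AS1* held 341446 counts beside 1084702 of *VIM* in A498, so reads of overlapping antisense genes may be mixed. Groups and lines came from the sample labels, which were not checked for an exchange of the lines, and 0 columns had no sample. Of 39321 rows, 39148 were matched to a GENCODE annotation and 173 were not.

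Counts were tested in R 4.3.3 with edgeR 4.0.16 (TMM, robust quasi-likelihood fit, legacy form), with the 12 libraries of a line in one model and one mean per group. Genes entered with 10 counts or more in total across the 3 libraries of some group. Benjamini-Hochberg adjustment ran over all genes tested, and a call needed an adjusted p under 0.05 and a log2 fold change beyond 0.5. Line differences (786-O minus A498) were tested in a model of all 24 libraries, and the interaction as the IFNγ effect in PD-L1si minus that in Cnsi cells. Biological coefficients of variation were 0.0392 in A498 and 0.0560 in 786-O. All SEs are of log2 fold changes. Counting intervals are exact, at 95%, and cover counting error only. The scripts were tested on simulated data.

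The labels do not say that replicates were separate cultures, so p-values measure the spread between these libraries, which may be technical. Libraries of a group differed beyond sampling noise (ratio of chi-square to its degrees of freedom 1.63 to 24.3 in 24 pairs), so all were kept as replicates. IFNγ and siRNA comparisons of a line share libraries, so no agreement between them is given as a result.

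Values are printed per library for members called with IFNγ in Cnsi cells of both lines, called between lines, in the interaction or under IFNγ with PD-L1 siRNA, and for *TRAF1*. Others are given by counts and ranges, and some, such as *TNFRSF9* without IFNγ, *TNFRSF10A* or *TRAF3*, were added after their values were seen. *FAS* falls under the rule, since its IFNγ effect was called between lines. The members, the pathway lists and these rules were chosen with earlier results of these data known. Alternatives were DESeq2 1.42.0, relative log expression, filterByExpr, no filter, protein-coding genes only, no fold threshold or a stricter one at log2 1, a replicate block and leaving out each library.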

Additional observations from a re-analysis of the deposited data

Results flagged for a closer look

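All of these results were set apart because a test of the difference between groups passed. Every group holds 3 libraries, too few to test whether one stands apart. In the libraries labelled A498 the effect of IFNγ differed between PD-L1si and Cnsi cells for *TNFRSF9* (log2 0.79) and *TNFSF10* (0.71).

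The effect of IFNγ in Cnsi cells differed between the lines, as 786-O minus A498 on the log2 scale, for *TNFRSF14* (4.19), *TNFSF10* (2.26), *TNFRSF19* (1.28), *TNFSF15* (1.18), *TNFRSF11B* (0.90), *TNFSF13* (0.89), *TNFRSF1A* (0.74), *TNFSF9* (0.53), *TNFRSF10B* (-0.55), *TRAF1* (-0.78), *TRAF5* (-0.92) and *FAS* (-1.04). *TRAF5* measured 16.9, 16.3 and 13.4 CPM without and 15.5, 15.1 and 15.8 CPM with IFNγ in 786-O. *TNFRSF19* measured 0.575, 0.357 and 0.789 against 0.573, 0.518 and 0.630 CPM there, and *TNFSF13* 2.91, 2.72 and 2.57 against 3.19, 2.37 and 2.44 CPM, so that in these 3 genes the 786-O groups overlapped and the change lay in the A498 libraries. Single libraries decided 4 of these calls. *TNFRSF10B* was not called without Cnsi IFNγ replicate 1 of 786-O (-0.46). *TNFSF15* was not called in 6 of the 24 fits without one library (Cnsi replicates 2 and 3 and Cnsi IFNγ replicate 2 of 786-O, and Cnsi replicates 1 and 2 and Cnsi IFNγ replicate 2 of A498), with values from 1.01 to 1.18. *TNFSF13* was not called in 5 (Cnsi IFNγ replicate 1 of 786-O, and Cnsi replicates 1 and 3 and Cnsi IFNγ replicates 2 and 3 of A498), with values from 0.59 to 0.84. *TNFSF9* was not called without Cnsi replicate 1 (0.49) or Cnsi IFNγ replicate 3 (0.47) of A498. DESeq2 called none of the differences of *TNFSF15*, *TNFSF13* and *TNFSF9* (1.15, 0.85 and 0.48).

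Under IFNγ, the PD-L1 siRNA effect differed between the lines for *TNFRSF1B* (3.53), *TNFSF15* (0.97), *TRAF1* (0.80), *TNFRSF10D* (0.59), *TNFSF13B* (0.56) and *TNFRSF19* (-1.07). *TNFSF15* measured 2.05, 1.32 and 1.68 CPM in Cnsi IFNγ and 1.31, 1.37 and 1.21 CPM in PD-L1si IFNγ libraries labelled A498, and its call was lost without PD-L1si IFNγ replicate 3 of 786-O (0.83) or Cnsi IFNγ replicate 1 of A498 (0.79). *TNFRSF19* was not called without Cnsi IFNγ replicate 1 or 3 or PD-L1si IFNγ replicate 1 or 2 of 786-O or Cnsi IFNγ replicate 1 of A498 (-1.07 to -0.90), and its 786-O values were 0.573, 0.518 and 0.630 against 0.345, 0.310 and 0.577 CPM.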

How the results depend on the processing

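Of 2124 refits of single members, 2033 kept direction and call, 91 kept direction and lost the call, and 0 reversed. Calls were lost in 39 refits that left out a library (14 results), in 36 with the stricter fold and in 16 with another tool, scaling or filter. The order below is IFNγ in Cnsi, IFNγ in PD-L1si, PD-L1si under IFNγ, PD-L1si without IFNγ and the interaction. With no fold threshold 29, 30, 19, 16 and 6 members were called in A498 and 20, 19, 9 and 7 in the first 4 comparisons of 786-O, with 20 and 14 for the line differences of IFNγ and of PD-L1si under IFNγ. With a log2 fold change over 1 they were 11 for IFNγ in Cnsi, 3 for PD-L1si under IFNγ, 4 without IFNγ and 0 for the interaction in A498, 1 and 0 for the siRNA comparisons of 786-O, and 5 and 2 for the line differences. For PD-L1si under IFNγ in 786-O, DESeq2 called 0 and filterByExpr 1 of the 2 called otherwise. Without IFNγ there, filterByExpr and protein-coding genes only each called 2. Leaving out single libraries gave 17 to 18, 17 to 21, 6 to 8, 9 to 10 and 2 to 3 calls in A498, 10 to 11, 10 to 11, 0 to 2, 1 to 2 and 0 to 1 in 786-O, and 9 to 13 and 4 to 6 for the line differences. In 786-O, PD-L1si under IFNγ came to 0 without Cnsi IFNγ replicate 3 or PD-L1si IFNγ replicate 1 and to 1 without Cnsi IFNγ replicate 1 or PD-L1si IFNγ replicate 2 or 3. PD-L1si without IFNγ came to 2 without any Cnsi IFNγ library, PD-L1si IFNγ replicate 2 or 3 or PD-L1si replicate 1, and the interaction to 1 without Cnsi IFNγ replicate 1. The cause of these changes was not tested. Relative log expression moved the median of all genes by at most 0.0472 on the log2 scale.

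The labels number replicates 1 to 3 in every group without saying that equal numbers belong together. Same-numbered libraries had mean correlations of their deviations of 0.0499 in A498 (lowest -0.0964) and 0.0280 in 786-O (lowest -0.322), and 8 and 3 of 12 libraries correlated best with their own number, so the numbers were not taken as a pairing. With a replicate block 18, 18, 6, 9 and 2 members were called in A498, 11, 11, 2, 1 and 0 in 786-O, and 13 and 6 for the line differences. All calls made without the block were kept, and *TNFRSF1B* was gained for the line difference of IFNγ. Depth limits the calls on *TNFRSF8*, *NGFR*, *TNFSF18*, *TNF* and the A498 values of *TNFRSF1B*, which rest on few counts per library. The lower groups of *TNFSF13B* and *TNFSF15* in both lines and of *TNFRSF14* in 786-O also held few counts, so the size of their fold changes is uncertain.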
